A study of Mus musculus with 8 samples.

Results

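The 10 genes described here encode the proteins that fuse and divide mitochondria, the proteases that cleave the fusion protein of the inner membrane, and the prohibitins: Mfn1, Mfn2, Opa1, Oma1, Yme1l1, Dnm1l, Fis1, Mff, Phb and Phb2. They were chosen by symbol, without use of their values, out of 54749 genes in the count tables, and 10 of 10 were among the 21902 genes that passed edgeR's default filter on low counts. RNA was sequenced from long-term hematopoietic stem cells (LT-HSCs), the bone marrow cells that can rebuild the blood system over a long time, in 4 homozygous asrij floxed mice (libraries 1, 3, 4 and 5) and 4 asrij KO mice (libraries 2, 3, 4 and 5). The labels give all 8 mice an age of 6 months. Asrij is the mouse gene Ociad1. The floxed mice carry the flanked allele undeleted, and the KO mice are whole-body knockouts of asrij. The gene is thus targeted in the cells around the LT-HSCs as well as in the LT-HSCs. The study used mice of both sexes, and its methods for the RNA samples give the sort as LSK CD150+ CD48+. LT-HSCs are usually defined as CD48-, as in the study's other sorts, so the gate stated for these samples does not match the name LT-HSC, which is kept here as the label of the libraries. The comparison asks which transcripts differ between LT-HSCs with and without Asrij, a protein of mitochondria and endosomes.

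Mitochondria form a network that is remodelled by large GTPases. Mfn1 and Mfn2 join the outer membranes of neighbouring mitochondria and Opa1 joins their inner membranes and shapes the cristae, while Dnm1l (the protein Drp1) is drawn from the cytosol by receptors such as Mff, with Fis1 as a further outer membrane protein of the fission machinery, and constricts the organelle. The inner membrane proteases Oma1 and Yme1l1 cut Opa1 into its short forms, and Phb and Phb2 build the ring-shaped prohibitin complex of the inner membrane, which protects Opa1 from excess cleavage. In HSCs these proteins are studied for their part in quiescence, in the inheritance of old mitochondria and in the maintenance of stem cell potential.

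Library totals were 56661356 to 120858975 on transcripts and 23412829 to 44874882 on genes, with the highest total in floxed replicate 3. Levels are given as CPM, which is the count brought to the same library size by edgeR's TMM factors, and a difference is the log2 fold change of KO over floxed from edgeR's quasi-likelihood test with Benjamini-Hochberg adjustment over all genes tested. The targeted gene Ociad1 had 41.6, 66.9, 36.7 and 31.3 CPM in the floxed libraries and 15.2, 19.7, 12.5 and 11.7 CPM in the KO libraries. Every KO library lay below every floxed library, and the gene fell by 1.58 on the log2 scale (SE 0.27, edgeR adjusted p = 0.0249, n = 4 mice a genotype). Counts of 322 to 758 remained on Ociad1 in the KO libraries, and their place within the gene was not examined. The adjusted p missed its threshold without KO replicate 2, 4 or 5 or floxed replicate 1, at 0.0825, 0.0881, 0.0871 and 0.0759 respectively. A call also needed a log2 fold change beyond 1.5 in either direction. Without floxed replicate 3 the log2 fold change was -1.29 (edgeR adjusted p = 0.00403), short of that limit. It was also short without KO replicate 4 or 5, at -1.48 and -1.45.

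The sorted cells were checked against marker genes. None of 11 stem and progenitor markers was at 0, and their summed level was 160 to 190 CPM in floxed and 155 to 191 CPM in KO libraries. Kit was at 46.8 to 60.2 CPM and Cd48 at 35.2 to 55.2 CPM, whereas Procr and Fgd5 stayed near 1 CPM or below, at 0.142 to 0.962 and 0.158 to 1.09 CPM. Erythroid and neutrophil markers were far more abundant. The 12 erythroid markers summed to 28017 to 70907 CPM in floxed and 122603 to 295253 CPM in KO libraries, without overlap, and all 12 had a positive fold change, 3 of them with an adjusted p under 0.05. The 5 megakaryocyte and platelet markers summed to 61.7 to 127 CPM against 202 to 242 CPM, again without overlap, and 4 of the 5 rose at an adjusted p under 0.05. Summed levels of the 9 neutrophil markers overlapped between genotypes with all 8 libraries, at 15720 to 49058 and 23524 to 29930 CPM, as did those of 8 B and plasma cell markers (1332 to 3053 and 1155 to 1479 CPM), 5 T and NK cell markers (37.1 to 75.6 and 38.5 to 41.4 CPM) and 4 monocyte and macrophage markers (285 to 747 and 319 to 388 CPM). In these 4 lists the overlap came from floxed replicate 3, with sums of 15720, 1332, 37.1 and 285 CPM in the same order. Without it, a set chosen after seeing the data, the sums of the other 3 floxed libraries lay above those of every KO library in each list. They were 43037 to 49058, 1965 to 3053, 55.8 to 75.6 and 568 to 747 CPM. The B and plasma cell list was mixed, with 4 of its 8 fold changes positive over all 8 libraries. Of these 8 markers, 3 (Cd79a, Cd79b and Mzb1) had every KO library above every floxed library and 1 (Jchain) every KO library below. Among the 12 erythroid markers, 7 had every KO library above and 0 every KO library below. Of all 21902 genes tested, 7.1% had every KO library above, and 1678 genes had every KO library below. An adjusted p under 0.05 by edgeR was found for 2.97% of all genes tested. Of all gene counts, 5.13% ± 1.97 were haemoglobin in the floxed mice and 17.8% ± 5.65 in the KO mice (SD, n = 4). The erythroid, megakaryocyte and haemoglobin levels, and outside floxed replicate 3 the summed levels of the other mature cell lists, moved with genotype beside every member value given here. Their part in those values was not tested. In RNA of sorted cell pools, fewer cells of a type and less RNA per cell cannot be told apart.

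No member passed the test. At an adjusted p under 0.05, with or without the fold change limit of 1.5 on the log2 scale, 0 of 10 members differed by edgeR, against 2.97% of all genes tested at that p alone and 1.19% with both limits. An unadjusted p under 0.05 was found for 3 of the 10 members, near the share of 21.8% among all genes tested. These were Fis1 and Phb2 with higher and Yme1l1 with lower levels in KO. Fis1 and Phb2 were also the only members whose KO and floxed libraries did not overlap, both with KO higher. Among all 21902 genes tested, 1555 (7.1%) did not overlap with KO higher and a further 1678 with KO lower. DESeq2 placed these same members at an adjusted p under 0.05 (11.2% of all genes tested), and limma-voom placed 0 there (2.21%). The median log2 fold change was -0.05 over the 10 members and -0.01 over all genes tested, with 5 members positive and 5 negative.

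**Figure D1:**
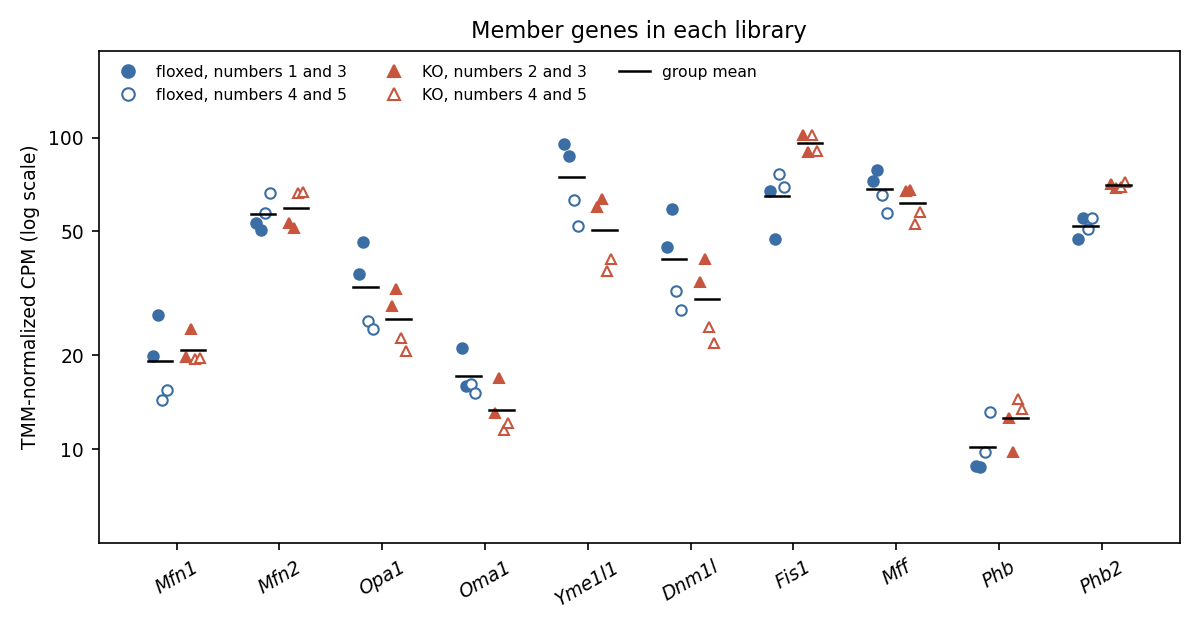
The plot shows the TMM-normalized CPM of each member in each library on a log axis, floxed as blue circles and KO as red triangles, with libraries numbered 4 and 5 drawn open and the group mean as a bar. For Fis1 and Phb2 the 4 KO symbols lie above the 4 floxed symbols, while Opa1, Yme1l1 and Dnm1l have the open symbols lowest within each genotype.

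The fusion genes of the outer membrane had the estimates nearest to 0 among the members. Mfn1, on the plus strand of chromosome 3 (GRCm38, counted transcript from 32529465 to 32579239), had 19.9, 26.9, 14.4 and 15.5 CPM in floxed and 19.8, 24.4, 19.5 and 19.6 CPM in KO libraries. The highest and the lowest values were both floxed, so the KO values lay inside the floxed range. The log2 fold change was 0.12 (SE 0.21, 95% interval -0.36 to 0.60, edgeR adjusted p = 0.798). Mfn2, which also tethers mitochondria to the endoplasmic reticulum, had 53.2, 50.5, 57.2 and 66.5 CPM in floxed and 53.1, 51.2, 66.4 and 67.1 CPM in KO libraries. Libraries 4 and 5 were the highest in each genotype and the genotypes overlapped, and the log2 fold change was 0.06 (SE 0.16, 95% interval -0.29 to 0.42, edgeR adjusted p = 0.851).

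Opa1, the fusion GTPase of the inner membrane, lies on the plus strand of chromosome 16 from 29579334 to 29654884. It had 36.4, 46.4, 25.8 and 24.3 CPM in floxed and 28.8, 32.6, 22.8 and 20.7 CPM in KO libraries. Each KO library lay below the floxed library of the same number where both existed, but the groups overlapped. Group means were 33.2 ± 10.3 and 26.2 ± 5.46 CPM (SD, n = 4), with a log2 fold change of -0.34 (SE 0.24, 95% interval -0.88 to 0.20, edgeR adjusted p = 0.453).

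The proteases that act on Opa1 had lower mean levels in KO. Yme1l1, the ATP-dependent protease on the side of the intermembrane space, lies on the plus strand of chromosome 2 from 23156369 to 23199260. It had 95.7, 87.5, 63 and 52.2 CPM in floxed and 60.1, 63.7, 37.4 and 40.7 CPM in KO libraries. Floxed replicates 1 and 3 were the highest and KO replicates 4 and 5 the lowest, and the groups overlapped between 52.2 and 63.7 CPM. Its log2 fold change of -0.56 (SE 0.25, 95% interval -1.12 to -0.01) had an unadjusted p of 0.0477 and an edgeR adjusted p of 0.224. Oma1, the stress-activated metalloprotease, had 21.2, 15.9, 16.2 and 15.2 CPM in floxed and 13.1, 16.9, 11.5 and 12.1 CPM in KO libraries. KO replicate 3 lay above 3 of the floxed libraries, and the other KO libraries lay below all 4. Its log2 fold change was -0.35 (SE 0.19, 95% interval -0.77 to 0.06, edgeR adjusted p = 0.304). The ratio of Oma1 to Yme1l1 counts within a library was 0.238 ± 0.0474 in floxed and 0.272 ± 0.0405 in KO mice and did not separate the genotypes (exact two-sided permutation p = 0.257, 1 of 5 ratios compared, p-values of ratios unadjusted).

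Among the fission genes, Dnm1l and Fis1 had fold changes of opposite sign. Dnm1l, on the minus strand of chromosome 16 from 16312230 to 16358959, had 44.5, 58.9, 32.3 and 28 CPM in floxed and 34.4, 40.8, 24.6 and 22 CPM in KO libraries. As with Opa1, floxed replicate 3 was the highest and KO replicate 5 the lowest, and the 2 genes put the 8 libraries in the same order. The log2 fold change of Dnm1l was -0.43 (SE 0.28, 95% interval -1.05 to 0.19, edgeR adjusted p = 0.41). Mff, the main Dnm1l receptor, had 72.4, 78.9, 65.6 and 57.3 CPM in floxed and 67.4, 68, 53 and 57.9 CPM in KO libraries. Its groups overlapped widely, with a log2 fold change of -0.16 (SE 0.16, 95% interval -0.50 to 0.19, edgeR adjusted p = 0.612).

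Fis1 and Yme1l1 had the largest absolute log2 fold changes of the 10 members, equal at 0.56 and -0.56, and Yme1l1 exceeded Fis1 in 7 of 19 other fits. Fis1 lies on the plus strand of chromosome 5 from 136953275 to 136966232 (transcript Fis1-202, 5 exons) and had 67.5, 47.4, 76.3 and 69.3 CPM in floxed libraries. In KO libraries it had 102, 90.1, 102 and 90.6 CPM, all above the highest floxed library. Floxed replicate 3 was the lowest of the 8, and the KO libraries were spread less than the floxed. The means of 65.1 ± 12.4 and 96.3 ± 6.86 CPM (SD, n = 4) correspond to a 1.48-fold higher level in KO (95% interval 1.14 to 1.92). The log2 fold change of 0.56 (SE 0.17) had an unadjusted p of 0.00786 and missed the threshold after adjustment (edgeR adjusted p = 0.0936). An exact two-sided permutation test gave p = 0.0286, the smallest that 70 labelings allow. All 6 annotated Fis1 transcripts had log2 fold changes of 0.62 to 0.67 when transcripts were tested one by one, with 0.0768 as the lowest edgeR adjusted p. These transcripts share reads, and the lowest total was 45.9% of that of the counted transcript, so the 6 values are not independent. No 50-base stretch of the spliced Fis1 transcript occurs in an annotated transcript of another gene. Its introns, which the counts also cover, were not searched.

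The balance between Fis1 and the other fission genes was compared within libraries, where library size cancels. Counts of Fis1 over counts of Mff were 0.932, 0.601, 1.16 and 1.21 in floxed and 1.51, 1.32, 1.93 and 1.56 in KO libraries. Every KO ratio lay above every floxed ratio, with a difference of 0.74 on the log2 scale (exact two-sided permutation p = 0.0286, unadjusted, 5 ratios compared). The ratio of Fis1 to Dnm1l was 1.79 ± 0.783 in floxed and 3.36 ± 0.949 in KO mice, and the groups overlapped (exact two-sided permutation p = 0.0857), since KO replicate 3 at 2.21 lay below floxed replicates 4 and 5 at 2.36 and 2.48. The ratio of Mfn1 to Mfn2 was 0.348 ± 0.138 in floxed and 0.359 ± 0.0875 in KO mice (exact two-sided permutation p = 0.743). These ratios show unequal levels of the paired genes and not which gene of a pair moved.

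The prohibitins had higher mean levels in KO. Phb2, on the plus strand of chromosome 6 from 124712336 to 124716950 (10 exons), had 47.2, 55.3, 50.9 and 55.3 CPM in floxed and 71.2, 68.7, 69.5 and 72 CPM in KO libraries. The groups did not overlap, and the 4 KO libraries lay close together. Phb2 was 1.35-fold higher in KO (95% interval 1.11 to 1.63), with means of 52.2 ± 3.91 and 70.3 ± 1.49 CPM (SD, n = 4). The log2 fold change of 0.43 (SE 0.12) had an unadjusted p of 0.0063 and an edgeR adjusted p of 0.0843, and the exact two-sided permutation p was 0.0286. The count may be shared in part with Gm15884, an antisense gene on the minus strand from 124715573 to 124718831. It overlaps the 3′ end of Phb2, and its total equals 38.4% of the Phb2 total. Whether reads were counted by strand is not given in the sources used here. Gm15884 was at 18.1 to 21.1 CPM in floxed and 23.2 to 32.1 CPM in KO libraries (log2 fold change 0.53, SE 0.15, edgeR adjusted p = 0.0871), and without strand the reads of the genes cannot be told apart in the overlap. The transcript Phb2-202, which ends before the overlap, had a log2 fold change of 0.48 (edgeR adjusted p = 0.184).

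Phb, the partner of Phb2 in the ring, had 8.86, 8.76, 9.82 and 13.2 CPM in floxed and 12.6, 9.78, 14.5 and 13.5 CPM in KO libraries. Floxed replicate 5 lay among the KO libraries and KO replicate 3 among the floxed ones, and the log2 fold change was 0.31 (SE 0.20, 95% interval -0.14 to 0.76, edgeR adjusted p = 0.404). The Phb count is uncertain, since 47.3% of the 50-base stretches of the counted transcript occur in other genes, most of them in Gm7666. The ratio of Phb2 to Phb counts was 5.26 ± 0.866 in floxed and 5.7 ± 0.956 in KO mice (exact two-sided permutation p = 0.486).

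**Figure D2:**
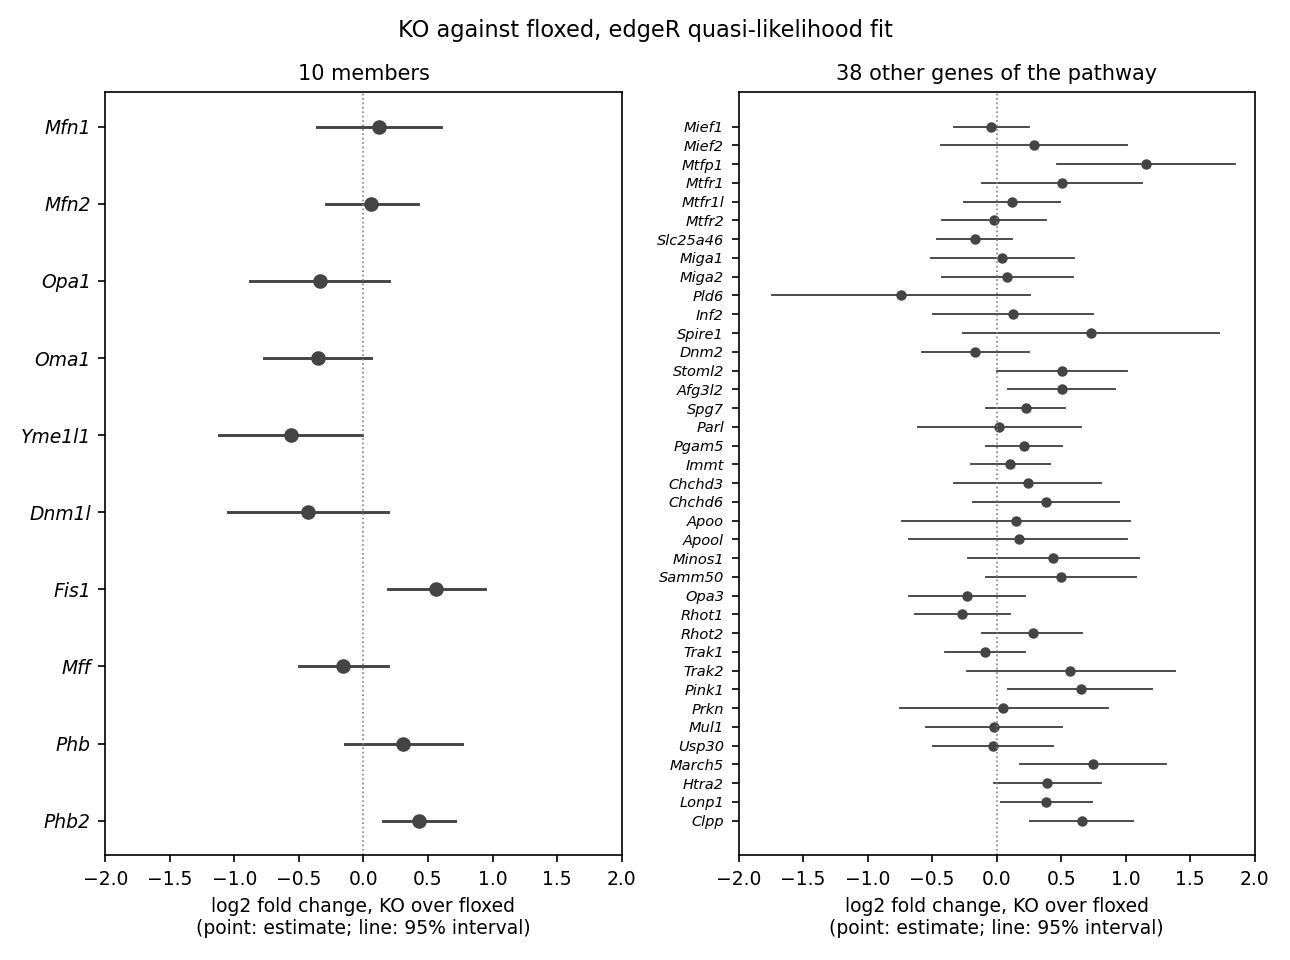
Points are log2 fold changes of KO over floxed from the edgeR fit and lines their 95% intervals, for the 10 members on the left and 38 other genes of mitochondrial dynamics on the right. Among the members the intervals of Fis1 and Phb2 lie above 0 and that of Yme1l1 just below it, and on the right Mtfp1 has the largest positive estimate at 1.16 and Pld6 the widest interval.

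Libraries numbered 4 and 5 differed from those numbered 1 to 3 in both genotypes, a grouping seen in the counts for which the labels give no batch. Mfn1, Opa1, Yme1l1, Dnm1l and Mff were lower in both libraries numbered 4 and 5 than in both others within each genotype, which 21.8% of all genes tested were. Mfn2 and Phb were higher in the same way (19.8%), and Oma1, Fis1 and Phb2 showed no such order. Within numbers 1 to 3 and within numbers 4 and 5, the KO minus floxed difference of log2(CPM + 1) was 0.75 and 0.40 for Fis1 and 0.45 and 0.41 for Phb2. It was -0.56 and -0.54 for Yme1l1, -0.44 and -0.36 for Dnm1l, and -0.41 and -0.20 for Opa1. The sign was thus the same in both sets for these 5 genes, as it was for Mfn2, Mff, Oma1 and Phb, whereas Mfn1 changed from -0.07 to 0.37. With a block for numbers 4 and 5 in the edgeR fit, 4 members passed an adjusted p of 0.05, against 18.5% of all genes tested. Fis1 (adjusted p = 0.0246) and Phb2 (0.0193) were then higher, and Yme1l1 (0.00964) and Dnm1l (0.0491) lower in KO. With the replicate number as the block, over numbers 3, 4 and 5, none of the 10 passed (0.222% of all genes tested), and Fis1 and Phb2 kept log2 fold changes of 0.60 and 0.40 with edgeR adjusted p-values of 0.198 and 0.246.

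Levels of different genes were compared per kilobase of the spliced length of the counted transcript. In floxed mice Fis1 was highest at 68.7 ± 13.1 CPM per kb (SD, n = 4). Mff at 40.2 and Phb2 at 39.6 CPM per kb came next and overlapped each other, followed by Yme1l1 at 15.9, Mfn2 at 13.1, Dnm1l at 10.4 and Oma1 at 8.94 CPM per kb, where each neighbour overlapped the next. Phb at 5.64, Opa1 at 5.33 and Mfn1 at 4.2 CPM per kb formed the low end and again overlapped in turn. In KO mice Fis1 stood at 102 ± 7.24 CPM per kb and Phb2 at 53.4 ± 1.13, above Mff at 36.1 ± 4.31 CPM per kb. These levels depend on which length is used, because the deposited counts cover introns. The coding and a retained-intron transcript of Phb2, for example, share their ends but not their exons, and each had a total of 16721 counts. Per kilobase of genomic span, 9 of the 10 ranks changed in floxed mice, with Phb2 first at 11.3 CPM per kb, Fis1 next at 5.02 and Oma1 last at 0.325 CPM per kb.

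The position of reads within the genes was read from annotated transcripts that end upstream of the 3′ end of their gene. They had to end at least 20% of the span before it and hold at least 400 counts, which 8 members met. Fis1 has no transcript that ends so early, and those of Phb held at most 294 counts. For Mff the upstream transcript Mff-213 took 37.1, 37.2, 28 and 34% of the gene's count in floxed and 30.3, 29.4, 26.4 and 26.8% in KO libraries. Only floxed replicate 4 fell within the KO range (exact two-sided permutation p = 0.0857, the lowest of 8 comparisons, unadjusted). The mean share was lower in KO for all 8 genes, from 25.5% ± 12 to 16.8% ± 5.67 in Mfn2 (exact two-sided permutation p = 0.229) to 27% ± 2.23 against 26.6% ± 3.87 in Phb2 (exact two-sided permutation p = 0.857, SD, n = 4), and the genotypes overlapped in every one of them. For Opa1 the share was 45.1 and 45.6% in floxed replicates 1 and 3 and 21.1 and 28.3% in floxed replicates 4 and 5, a gap wider than that between the genotype means of 35% and 30%. In 6 of the 8 genes, all but Mfn1 and Phb2, the share was lower in both libraries numbered 4 and 5 than in both others within each genotype. Phb2 went the other way in KO mice, at 22.3 and 24.5% in replicates 2 and 3 and 29.5 and 30.2% in replicates 4 and 5, and overlapped in floxed mice.

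**Figure D3:**
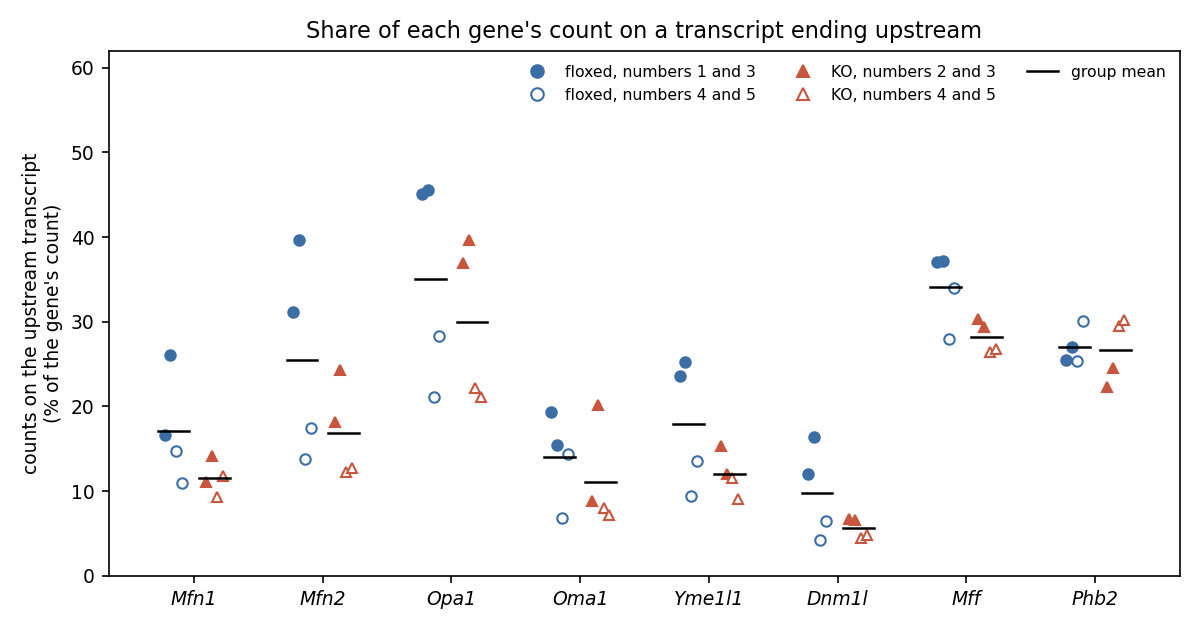
Each symbol is the percentage of a gene's count in 1 library that falls on a transcript ending upstream of the gene's 3′ end, with floxed as blue circles, KO as red triangles, numbers 4 and 5 open and the group mean as a bar. In 6 of the 8 genes, all but Mfn1 and Phb2, the open symbols sit below the filled ones in both genotypes, and no gene separates floxed from KO.

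Fold changes were also set beside gene length. Across 14501 protein coding genes tested, longer genomic span went with a lower fold change (Spearman rho -0.31, a description across genes, which are not independent replicates and share their libraries). Over the 10 members the same rho was -0.68. The shortest member, Phb2 at 4.62 kb, had a log2 fold change of 0.43, and genes with spans up to 9.8 kb had a median of 0.22. Fis1 at 13 kb and Phb at 13.8 kb fall among spans of 9.8 to 23.4 kb, with a median of 0.03, and Opa1 at 75.6 kb among spans above 57.2 kb, with a median of -0.21. The other 6 members have spans of 23.4 to 57.2 kb, where the median was -0.09. The part of gene length in the members' differences was not tested.

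**Figure D4:**
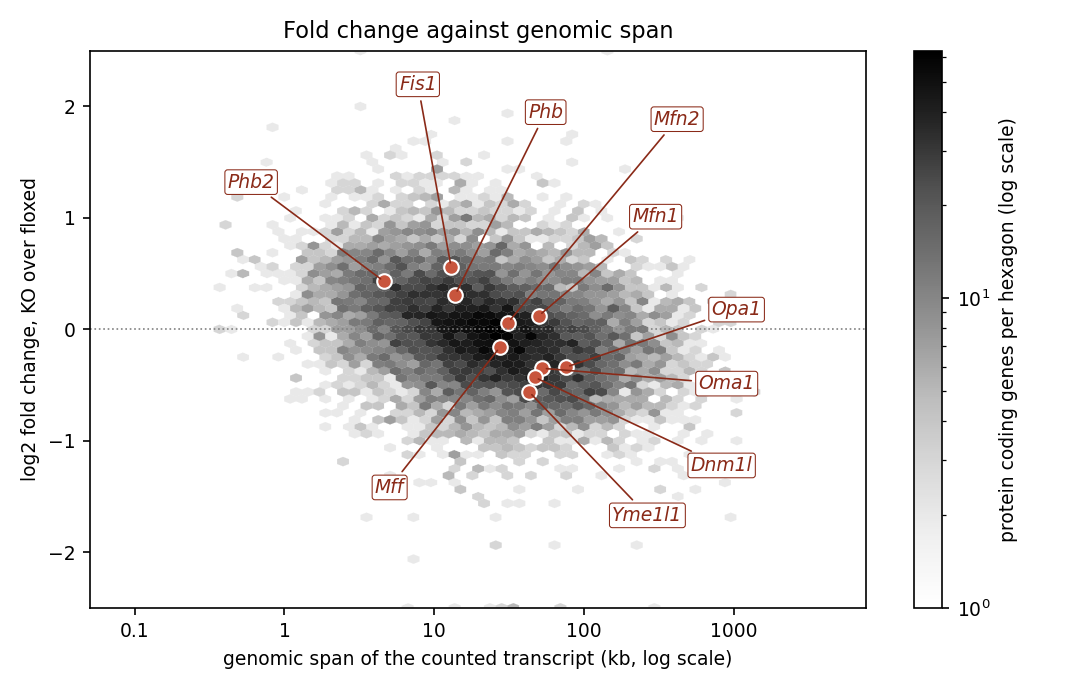
Hexagons give the density of 14501 protein coding genes by genomic span in kb (log axis) and log2 fold change of KO over floxed, with values beyond 2.5 in either direction drawn at the edge, and red points are the 10 members. The cloud tilts downwards with span, and Phb2 and Fis1 lie at the short, positive side while Opa1, Oma1, Dnm1l and Yme1l1 lie at the long, negative side. Mfn1 at 49.8 kb and Mfn2 at 31.1 kb lie just above 0.

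Sequences upstream of the members were taken from RefSeq (GRCm38.p6, the 250 bases before the RefSeq start nearest to the counted transcript, found for 10 of 10 members). Motifs were searched on both strands after the sequences had been looked at: an ETS site (CCGGAAGT), the core of an NRF1 site (GCATGCGC), the core of a ZNF143/THAP11 site (ACTACAACT), a YY1 site (AANATGGC), the CCAAT box (CCAAT) and the TATA box (TATAAA). The ETS letters occur before Mfn1, Fis1 and Phb2 and in 2.88% of 32851 promoters of this length. The Fis1 sequence is shown whole and the Phb2 sequence from the start of the divergent gene Emg1, whose first exon holds the 140 bases before it, because these members were the ones without overlap between genotypes. The Dnm1l sequence is shown beside a stretch of that of Opa1, the gene with the same order of libraries. Capitals mark the motif matches, which for Fis1 are a CCAAT box and then an ETS site, for Phb2 an ETS site on the minus strand, for Dnm1l a CCAAT box on the minus strand, for Opa1 the NRF1 core, which overlaps itself on the other strand, and for Mfn2 and Phb the ZNF143/THAP11 core.
Fis1, chr5:136953025-136953274, plus strand: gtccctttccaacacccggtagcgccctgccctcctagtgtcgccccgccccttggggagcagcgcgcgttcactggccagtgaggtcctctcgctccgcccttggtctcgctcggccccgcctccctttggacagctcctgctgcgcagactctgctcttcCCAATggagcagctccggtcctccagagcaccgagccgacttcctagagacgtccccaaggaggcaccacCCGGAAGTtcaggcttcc
Phb2, chr6:124712179-124712288, plus strand: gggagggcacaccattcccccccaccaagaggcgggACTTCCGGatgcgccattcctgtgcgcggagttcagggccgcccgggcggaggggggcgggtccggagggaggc
Dnm1l, chr16:16359032-16359281, minus strand: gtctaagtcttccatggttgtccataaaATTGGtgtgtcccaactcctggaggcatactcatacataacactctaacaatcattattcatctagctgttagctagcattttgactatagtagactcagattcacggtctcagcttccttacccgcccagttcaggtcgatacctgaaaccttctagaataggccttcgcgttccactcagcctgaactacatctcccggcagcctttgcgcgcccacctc
Opa1, chr16:29579251-29579310, plus strand: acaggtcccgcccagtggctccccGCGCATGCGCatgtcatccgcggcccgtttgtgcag
Mfn2, chr4:147904889-147904948, minus strand: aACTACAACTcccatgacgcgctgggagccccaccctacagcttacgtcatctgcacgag
Phb, chr11:95666723-95666782, plus strand: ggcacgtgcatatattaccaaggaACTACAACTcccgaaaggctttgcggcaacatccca
The NRF1 letters, held by 2.26% of all promoters, were found before Opa1 alone among the members. The ZNF143/THAP11 letters were found before Mfn2 and at 2 positions before Phb, and in 0.539% of all promoters. The YY1 letters occurred before Mfn1, Mff and Phb2 (3.91% of all promoters), for Phb2 within the Emg1 exon, the CCAAT box before 6 members (33.8%), and the TATA box before none (12.4%). Such matches describe letters and not bound sites. Of the members with the ETS letters, Mfn1 had a log2 fold change of 0.12, Phb2 of 0.43 and Fis1 of 0.56.

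The wider pathway was described through 39 other genes, of which 38 were tested and Gdap1 did not pass the filter on counts. None had an edgeR adjusted p under 0.05. At an unadjusted p under 0.05, 7 were higher (9.63% of all genes tested) and 0 lower in KO (12.1%): Mtfp1, Stoml2, Afg3l2, Pink1, March5, Lonp1 and Clpp. In all, 28 fold changes were positive and 10 negative, with a median of 0.19 against -0.01 over all genes tested. DESeq2 placed 3 of the 38 at an adjusted p under 0.05, where it placed 11.2% of all genes tested, and limma-voom placed 0 (2.21%).

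By role, the 7 proteases and quality control factors of the inner membrane, intermembrane space and matrix (Afg3l2, Spg7, Parl, Pgam5, Htra2, Lonp1 and Clpp) all had positive fold changes, with a median of 0.38. Of these, Spg7, Pgam5, Lonp1 and Clpp had every KO library above every floxed library, with 5 such genes among all partners and 7.1% among all genes tested. Clpp, the subunit of the matrix protease that cuts proteins unfolded by its ATPase partner, had mean levels of 11.1 ± 2.05 and 17.6 ± 1.59 CPM in floxed and KO mice and was named after its values had been seen (log2 fold change 0.66, SE 0.18, edgeR adjusted p = 0.0736). Their signs were opposite to those of Oma1 and Yme1l1. Among 9 cristae and scaffold genes, which include Immt of the MICOS complex and Stoml2, a binding partner of prohibitins, 8 were positive with a median of 0.24. The 9 fission factors tested had a median of 0.13, the 4 fusion factors -0.06, the 4 transport genes 0.09 and the 5 mitophagy and ubiquitin genes 0.05.

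The partners with the largest absolute fold changes were Mtfp1, March5 and Pld6. Mtfp1, an inner membrane protein that promotes fission, had 2.03, 5.09, 3.06 and 3.1 CPM in floxed and 5.84, 5.9, 9.01 and 9.06 CPM in KO libraries. Its groups did not overlap, and the log2 fold change was 1.16 (SE 0.31, 95% interval 0.47 to 1.85, edgeR adjusted p = 0.0694). March5, an outer membrane ubiquitin ligase that acts on mitofusins and fission factors, averaged 57.5 ± 23.4 and 96.6 ± 11 CPM (log2 fold change 0.75, SE 0.25, edgeR adjusted p = 0.125). Pld6, a phospholipase of the outer membrane, was below 1 CPM on average in both genotypes, at 0.711 ± 0.317 and 0.419 ± 0.0984 CPM (log2 fold change -0.74, SE 0.45, edgeR adjusted p = 0.377).

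One floxed library decided part of these calls. Without floxed replicate 3, which had the lowest Fis1 and the highest Opa1, Dnm1l and Ociad1 levels of the 8, Fis1 (log2 fold change 0.45, edgeR adjusted p = 0.0282) and Phb2 (0.47, adjusted p = 0.0182) passed an adjusted p of 0.05, as did 17.5% of all genes tested in that fit, and 857 genes in place of 261 were called with both limits. The same omission brought 7 of the 38 partners, against the same 17.5%, past an adjusted p of 0.05, among them March5 (1.09, adjusted p = 0.00142) and Mtfp1 (1.46, adjusted p = 0.00813).

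Fis1 had the highest level per length and, in the reported fit and by less than the printed digits, the largest absolute fold change, so the genes most like it were sought over the 8 libraries among 10653 protein coding genes with a mean of at least 5 CPM. By Pearson's correlation of log2(CPM + 1), given as a description over libraries that share their depth and composition, the closest were Rbm8a2 (0.989), Pld5 (0.989) and Phpt1 (0.980). Rbm8a2 and Pld5 overlap in the genome and had almost the same counts, so their values cannot be told apart. Phpt1, a histidine phosphatase, had 5.56 to 8.55 CPM in floxed and 9.78 to 12.2 CPM in KO libraries, without overlap. It was picked for following Fis1, whose groups did not overlap either, so this is not a separate observation.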

How the data were processed

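RNA libraries of LT-HSCs from 4 asrij floxed and 4 asrij KO mice, 1 library a mouse, were analysed. Read quality was assessed by the authors in FastQC, adaptors were removed in Trim Galore and alignment to transcripts of GRCm38/mm10 used Bowtie 2. The authors deposited raw counts for 138930 Ensembl transcripts. The counting tool, the use of strand and the versions are not given in the sources used here. Of the 8 files, 7 are tab-separated under a name for comma-separated files, so their deposited unit was recorded as other, although each holds counts. All values were checked to be whole numbers.

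GENCODE M21 (GRCm38) holds 138789 of the transcripts. Each gene is represented by whichever of its transcripts had the highest summed count, since reads are counted on several transcripts and over introns. Overlapping genes can therefore share reads. Genes were filtered with filterByExpr, scaled by TMM and tested in edgeR 4.0.16 (R 4.3.3) without covariates. Calls needed an adjusted p under 0.05 with a log2 fold change beyond 1.5 in either direction, and counts at that adjusted p alone are also given. CPM use TMM-scaled sizes. Ratios, shares and single genes were compared by exact two-sided permutation tests over 70 labelings, whose smallest p is 0.0286. Values per library carry counts of 231 to 4628 for the members. Where nothing is said, errors are SD over 4 mice.

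Members and lists were chosen with earlier results of these data known. Genes named by rule are the members, Ociad1, partners past the adjusted p and the 3 with the largest absolute fold changes. The rule also names the 3 genes most correlated with the member of largest fold change and with that of the highest level per length. Other partners are named outside this rule, by role or after their unadjusted p or lack of overlap had been seen. Same-numbered libraries of both genotypes deviated together across genes (r = 0.43, 0.45 and 0.71 for numbers 3, 4 and 5). Libraries of different numbers ranged from -0.73 to 0.71, so these values do not set same-numbered pairs apart. Same-numbered libraries come from different mice, and the replicate block was fitted as an alternative. Other alternatives were limma-voom 3.58.1, DESeq2 1.42.0, other filters, scalings and thresholds, sums over transcripts, omission of overlapping genes, a block for numbers 4 and 5, and omission of each library. The fits were tested on simulated data. Other steps used Python 3.11.15, numpy 2.4.6, scipy 1.17.1 and pandas 2.3.3.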

Additional observations from a re-analysis of the deposited data

Results flagged for a closer look

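Mfn1 in KO replicate 3 stood far from the other KO libraries, at 4.67 on the log2(CPM + 1) scale against 4.36 to 4.38. The gap took 0.933 of the range of the group. Of 28 groups of 4 libraries examined in this way 1 stood out, where chance gives about 1.4. Floxed replicate 3 also had the highest Mfn1 level of its genotype.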

How the results depend on the processing

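The 261 genes called in all became 503 with DESeq2, 521 with a block for numbers 4 and 5, 651 at an adjusted p under 0.05 alone, 649 with a fold change above 1.5 in place of the log2 limit, 44 with the replicate block over numbers 3, 4 and 5, and 23 in the same libraries without the block, a fit added after seeing the data. Leaving out 1 library gave 51 (without floxed replicate 1) to 857 (without floxed replicate 3). Members at an adjusted p under 0.05 numbered 0 in the reported fit, 2 with DESeq2, 4 with the block for numbers 4 and 5 and 0 with the replicate block, and 0 to 2 with 1 library left out, the 2 being Fis1 and Phb2 without floxed replicate 3. Partners at that p numbered 0 as reported, 3 with DESeq2, 7 with the block for numbers 4 and 5, and 0 to 7 with 1 library left out, the 7 without floxed replicate 3. Of all genes tested, 11.2%, 18.5% and 17.5% passed in these 3 fits, so the counts of 38 partners stand near or below the share of all genes. With both limits, 0 to 1 partners were called with 1 library left out and 0 of the 10 members under every alternative that was run.

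For the 14 genes named by rule from the fit, 251 of 270 alternatives kept direction and side of the adjusted p threshold. Another 14 passed it newly, 5 of Ociad1 lost it, and none reversed. Fis1 ranged from 0.45 to 0.65 and Phb2 from 0.40 to 0.50 on the log2 scale. The omission of overlapping genes removed Mfn2, Dnm1l, Mff, Phb and Phb2 themselves, so that it gave no value for them. Depth did not bar a test for any member, but with 4 mice a genotype standard errors ran from 0.12 (Phb2) to 0.28 (Dnm1l) on the log2 scale, which limits the differences that could be detected.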
